A study of Mus musculus with 80 samples.

Results

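The response of brown adipose tissue (BAT) to the loss of UCP1 in mice that still carry FGF21 was described from 10 of the 80 RNA sequencing libraries of the study. They were all 5 BAT libraries labelled UCP1 KO and all 5 BAT libraries labelled WT. The WT mice carried neither deletion, and the UCP1 KO mice were homozygous for the loss of UCP1 with the Fgf21 gene intact. All mice were males on the C57BL/6J background, bred and weaned at 30 °C, moved at 10 to 12 weeks of age to room temperature and from chow to a high-fat diet for 3 weeks, and killed after 2 to 3 h without food. So the WT controls had also had the move to a cooler room and the new diet, and the comparison shows the effect of genotype under both. Another 10 BAT libraries, 5 of FGF21 KO and 5 of mice lacking both genes (dKO, given as UCP1/FGF12 double KO in the description and as UCP1 and FGF21 knockouts in the breeding scheme), entered the same fit. The labels do not say which part of Ucp1 the knockout removes.

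BAT burns fatty acids and glucose to make heat. Its adipocytes are packed with mitochondria, and UCP1, a carrier in their inner membrane, lets protons back into the matrix without making ATP, so that the respiratory chain runs fast and its energy leaves as heat. FGF21 is a hormone that acts through FGF receptors and the coreceptor beta-Klotho, and it is among the classic products of cells whose mitochondria or amino acid supply are under stress. That programme, the integrated stress response, works through the transcription factor ATF4 and turns on genes for amino acid import, serine synthesis and one-carbon metabolism.

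Expression was measured as read counts per gene. The totals were 30298956 to 37339630 counts in the WT and 34890799 to 45624697 in the UCP1 KO libraries. The composition of the libraries differed between the genotypes. The 10 most counted genes took 31.5 ± 0.680% of the counts in WT and 21.6 ± 3.51% in UCP1 KO (SD, n = 5 each, exact permutation test, two-sided, p = 0.00794, which is the smallest possible with 5 against 5), and TMM scaling factors were 0.901 to 0.944 in WT but 1.00 to 1.31 in UCP1 KO. Values are therefore given as CPM, the count of a gene relative to a library size scaled by these factors, in counts per 1000000. Per-library values follow library order 1 to 5, and values in brackets after them are log2 fold changes of UCP1 KO over WT with their standard error (SE). The SE was derived from the test, as the size of the log2 fold change divided by the square root of its F statistic. None of 8 brown fat and none of 8 adipocyte marker genes was at 0 in every WT library. The marker genes of skeletal muscle and lymph node met this criterion too, so it cannot check the labelled tissue. For the 8 brown fat genes, the mean log2 of CPM plus 0.1 with plain library totals was 6.74 to 7.07 in WT. In UCP1 KO it was 6.16 to 6.84. Skeletal muscle RNA differed among the libraries. The score of 10 muscle genes, the mean log2 of CPM plus 0.1 with plain library totals, lay between 1.16 and 3.20 in WT and was 2.43, 9.60, 6.18, 5.11 and 2.65 in the UCP1 KO libraries 1 to 5, so that UCP1 KO libraries 2, 3 and 4 lay above the WT range. The summed CPM of these 10 genes ran from 26.0 to 115.5 in WT and reached 68.1 to 10044 in UCP1 KO, none was at 0 in every WT library, and 5 of the 10 were called higher. Values without those 3 libraries are given beside calls that were lost without them.

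**Figure D1:**
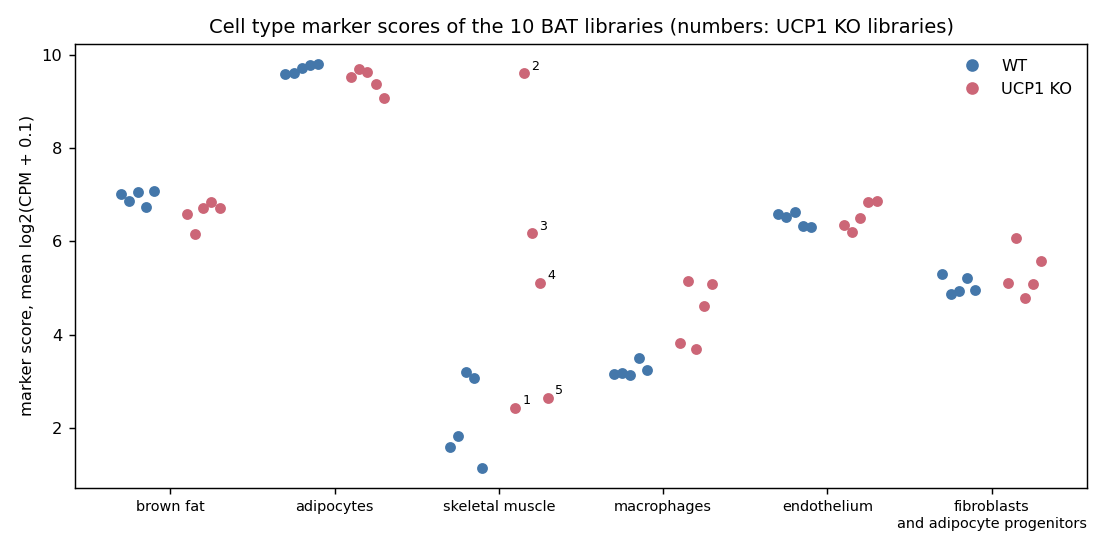
Each point is 1 BAT library (blue, WT, n = 5; red, UCP1 KO, n = 5), and the vertical axis is the mean log2(CPM + 0.1) of the marker genes of the cell type named below it. The skeletal muscle score of UCP1 KO libraries 2, 3 and 4 (9.60, 6.18 and 5.11) was above the WT range of 1.16 to 3.20, and the macrophage score was 3.70 to 5.16 in UCP1 KO against 3.13 to 3.50 in WT.

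Loss of UCP1 changed BAT broadly, and the rises were larger than the falls. With edgeR's quasi-likelihood test and a Benjamini-Hochberg adjusted p under 0.01, the threshold used throughout, 3965 of 15729 genes tested were called (25.2%), 2169 of them higher (13.8%) and 1796 lower (11.4%) in UCP1 KO. The median log2 fold change was 1.14 among the genes called higher and -0.50 among those called lower. A change of 8-fold or more was found in 202 genes that rose and 10 that fell. The 5 libraries of the genotypes did not overlap in 3696 genes (23.5%). Counts of called members in each gene list below are to be read beside the 13.8% and 11.4% of all genes. The split between rises and falls moved with the scaling: 54.7% of the calls were rises with TMM factors, 57.5% with size factors of the relative log expression type and 92.0% with plain library totals, which shifted the median of all tested genes from 0.01 to 0.31. Without UCP1 KO libraries 2, 3 and 4, 1368 genes were called higher and 778 lower.

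Ucp1 itself (GRCm38, chr8:83290352-83298452, plus strand, positions of genes from GENCODE) was still counted. It had 5918, 6520.2, 7555, 3205 and 5835 CPM in the WT libraries and 1232, 875, 1238, 837 and 529.8 CPM in the UCP1 KO libraries. Every UCP1 KO library was below every WT library, with a log2 fold change of -2.62 (SE 0.254, edgeR adjusted p = 8.98e-07). Reads from the parts of the gene that remain in the knockout could not be told apart from reads of a complete transcript.

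The genes with the largest rises were close to silent in WT BAT. Extl1, a glycosyltransferase of the exostosin family, had 0.152, 0.140, 0.140, 0.0976 and 0.261 CPM in WT and 21.4, 13.8, 26.5, 40.2 and 100.5 CPM in UCP1 KO, which is a log2 fold change of 7.95 (SE 0.565, edgeR adjusted p = 2.98e-08). Soat2, which esterifies cholesterol, had 0.0304, 0.0702, 0.0699, 0.0976 and 0.0579 CPM in WT, at most 3 counts in a library, and 2.33, 3.37, 4.71, 8.99 and 11.8 CPM in UCP1 KO, and was at least 64.2-fold higher. Akr1b7, an aldo-keto reductase, was at least 127-fold higher but spread widely, with 0.751, 0.675, 2.89, 13.1 and 44.5 CPM in the 5 UCP1 KO libraries. Library 5 held the highest value of all 3 genes, and no UCP1 KO library reached down to the WT range. Sh2d6, Raet1d, Vmn2r3 and Sult4a1, which also had at most 3 counts in every WT library, were at least 33.3, 24.1, 27.4 and 22.1-fold higher. Vmn2r3 was not called in a fit of the 10 libraries alone (edgeR adjusted p = 0.0127). Slit1, a secreted axon guidance protein, had 0.122, 0.140, 0.210, 0.228 and 0.0869 CPM in WT and 0.697, 1.52, 1.06, 6.83 and 67.7 CPM in UCP1 KO, where library 5 alone was above 10 CPM. Akr1b7, Vmn2r3 and Raet1d belong to families of related genes between which reads could have been divided.

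The largest falls included genes known from mature adipocytes and from growth factor signalling. Car3, carbonic anhydrase 3, an abundant enzyme of the adipocyte cytosol, had 2134, 1589.8, 3089, 2809 and 2617 CPM in WT and 502, 669, 168, 126 and 152 CPM in UCP1 KO, which is a log2 fold change of -2.92 (SE 0.402, edgeR adjusted p = 2.73e-05). Btc, the EGF receptor ligand betacellulin, had 30.6, 32.9, 29.1, 32.8 and 36.4 CPM in WT and 10.2, 3.25, 3.40, 5.29 and 3.97 CPM in UCP1 KO (-2.64 on the log2 scale). Dlk1, the preadipocyte factor, had 12.4, 12.8, 11.7, 7.81 and 6.72 CPM in WT and 2.33, 0.650, 1.98, 2.47 and 0.414 CPM in UCP1 KO (-2.71). In none of the 3 did a UCP1 KO library reach the lowest WT library. Pon1, a paraoxonase, fell by 3.03, Fgf14, an intracellular FGF that binds sodium channels, by 3.69, Ranbp3l by 3.85, Sh3gl3, an endophilin, by 3.55, St6galnac5, a sialyltransferase, by 2.81 and the transcript AK163121 by 2.87 on the log2 scale. Rnf150 had 45.9, 36.6, 36.0, 34.3 and 31.5 CPM in WT and 2.90, 10.2, 2.77, 2.80 and 2.22 CPM in UCP1 KO (-3.14), and it lies upstream of Ucp1 on chromosome 8 (GRCm38, chr8:82863356-83091268, plus strand). Within 10 Mb of Ucp1 by RefSeq positions, 18 of 121 genes tested were called higher and 16 lower, 28.1% in all against the 25.2% of all genes. Btc and St6galnac5 were no longer called without UCP1 KO libraries 2, 3 and 4 (-2.20 and -2.39, edgeR adjusted p = 0.0409 and 0.0128).

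Genes of the integrated stress response rose together. Of 19 tested, 13 were called higher and 1 lower, with a median log2 fold change of 1.91, against 13.8% and 11.4% of all genes and a median of 0.01. The count was 13 also without UCP1 KO libraries 2, 3 and 4, 13 to 14 when single libraries were left out and 15 with plain library totals. The promoters of Fgf21, Trib3, Chac1 and Asns are shown because these members rose together and each holds the letters TGATGNAA, the core of the composite element that C/EBP and ATF proteins bind. They run 5′ to 3′ on the gene's own strand, from 250 bases before to 50 after the start in RefSeq (GRCm38.p6), with the match on either strand in capitals. Their positions are chr7:45615441-45615740 (minus strand), chr2:152344011-152344310 (minus), chr2:119350992-119351291 (plus) and chr6:7693160-7693459 (minus).
Fgf21: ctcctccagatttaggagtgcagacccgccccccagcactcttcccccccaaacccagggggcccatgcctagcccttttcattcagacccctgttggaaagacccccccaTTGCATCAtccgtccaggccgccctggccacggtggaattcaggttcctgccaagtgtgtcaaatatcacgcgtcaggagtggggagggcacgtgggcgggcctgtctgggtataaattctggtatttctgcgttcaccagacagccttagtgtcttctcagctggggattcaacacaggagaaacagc
Trib3: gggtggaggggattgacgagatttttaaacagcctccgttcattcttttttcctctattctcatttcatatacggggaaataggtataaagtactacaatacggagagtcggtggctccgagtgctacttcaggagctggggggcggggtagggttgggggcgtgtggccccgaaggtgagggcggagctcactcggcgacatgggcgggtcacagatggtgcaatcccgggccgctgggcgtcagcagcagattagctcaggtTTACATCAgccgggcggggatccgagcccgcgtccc
Chac1: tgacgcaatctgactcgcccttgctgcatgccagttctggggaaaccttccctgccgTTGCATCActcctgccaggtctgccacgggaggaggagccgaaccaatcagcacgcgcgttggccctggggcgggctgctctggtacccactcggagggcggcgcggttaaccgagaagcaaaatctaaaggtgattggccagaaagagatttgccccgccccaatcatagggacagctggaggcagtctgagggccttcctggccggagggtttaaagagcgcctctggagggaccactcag
Asns: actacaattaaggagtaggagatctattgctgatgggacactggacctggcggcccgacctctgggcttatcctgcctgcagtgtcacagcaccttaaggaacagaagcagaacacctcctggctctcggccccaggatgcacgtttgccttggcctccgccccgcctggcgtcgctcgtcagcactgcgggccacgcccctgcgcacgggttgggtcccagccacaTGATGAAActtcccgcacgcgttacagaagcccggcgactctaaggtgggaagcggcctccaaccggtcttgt
The match began 139 bases before the start in Fgf21, 193 in Chac1, 23 in Asns and 14 bases after the start in Trib3. On either strand, TGATGNAA was found in 8 of 21 promoters of the 18 matched stress response genes (38.1%), in 75 of 2028 promoters of genes called higher (3.70%), in 34 of 1661 of genes called lower (2.05%), in 338 of 14170 of genes tested (2.39%) and in 1304 of all 32851 promoters (3.97%). The genes without the letters in this window included Atf4, Ddit3 and Gdf15, and Nupr1 and Vldlr held them and were not called.

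The transcription factors at the head of this response rose, Atf3 and Ddit3 more than Atf4 and Atf5. Atf4, which translation control normally sets, had 65.3, 91.9, 108, 84.2 and 94.2 CPM in WT and 179, 185, 183, 244 and 255 CPM in UCP1 KO, a 2.36-fold rise (1.24, SE 0.123, edgeR adjusted p = 1.18e-06). Ddit3, which encodes CHOP, had 18.7, 19.6, 17.3, 18.4 and 16.4 CPM in WT and 32.3, 67.7, 63.7, 164 and 246 CPM in UCP1 KO, which is a log2 fold change of 2.67 (SE 0.383, edgeR adjusted p = 4.12e-05). Atf3 had 1.25, 7.13, 4.62, 2.54 and 2.00 CPM in WT and 28.6, 21.4, 13.95, 49.2 and 147 CPM in UCP1 KO (3.91 on the log2 scale), and Atf5 159, 158, 145, 137 and 129 CPM in WT and 217, 357, 463, 370.4 and 458 CPM in UCP1 KO (1.36). The genotypes did not overlap in any of these 4, and within UCP1 KO library 5 was the highest for Atf4, Ddit3 and Atf3 and library 3 for Atf5.

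Known targets of these factors were among the members that rose. Trib3, a pseudokinase that restrains ATF4, had 7.09, 5.72, 4.69, 7.06 and 4.84 CPM in WT and 54.9, 82.4, 123, 259 and 296 CPM in UCP1 KO, a 27.7-fold rise (4.79, SE 0.394, edgeR adjusted p = 1.48e-07). Chac1, which breaks down glutathione, had 1.16, 1.76, 1.12, 0.976 and 0.753 CPM in WT and 4.21, 11.1, 13.4, 15.9 and 15.9 CPM in UCP1 KO, which is a log2 fold change of 3.40 (SE 0.414, edgeR adjusted p = 7.8e-06). Asns, asparagine synthetase, was the steadiest, with 48.7, 54.6, 55.7, 51.7 and 56.3 CPM in WT and 112, 87.4, 121, 112 and 121 CPM in UCP1 KO (1.05, SE 0.0787, edgeR adjusted p = 4.07e-08). In these 3 genes the lowest UCP1 KO library lay above the highest WT library. Aldh18a1 and Pycr1, which make proline, had 3.04 ± 0.120 and 0.876 ± 0.291 CPM in WT (mean ± SD, n = 5) and 20.2 ± 14.3 and 5.28 ± 2.62 CPM in UCP1 KO. Their log2 fold changes were 2.74 and 2.59 (edgeR adjusted p = 8.12e-06 and 3.85e-06). Eif4ebp1, a brake on translation and a known ATF4 target, went the other way, with 142 to 191 CPM in WT and 86.7 to 145 CPM in UCP1 KO. Its ranges overlapped and its log2 fold change of -0.52 (SE 0.112, edgeR adjusted p = 0.00124) was no longer called with plain library totals (-0.24, edgeR adjusted p = 0.0327) or in a fit of the 10 libraries alone (adjusted p = 0.0159). Of the 13 members that rose, 11 had their highest value in UCP1 KO library 5 and 2 in library 3. Without library 5 the median of the 19 genes was 1.48.

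**Figure D2:**
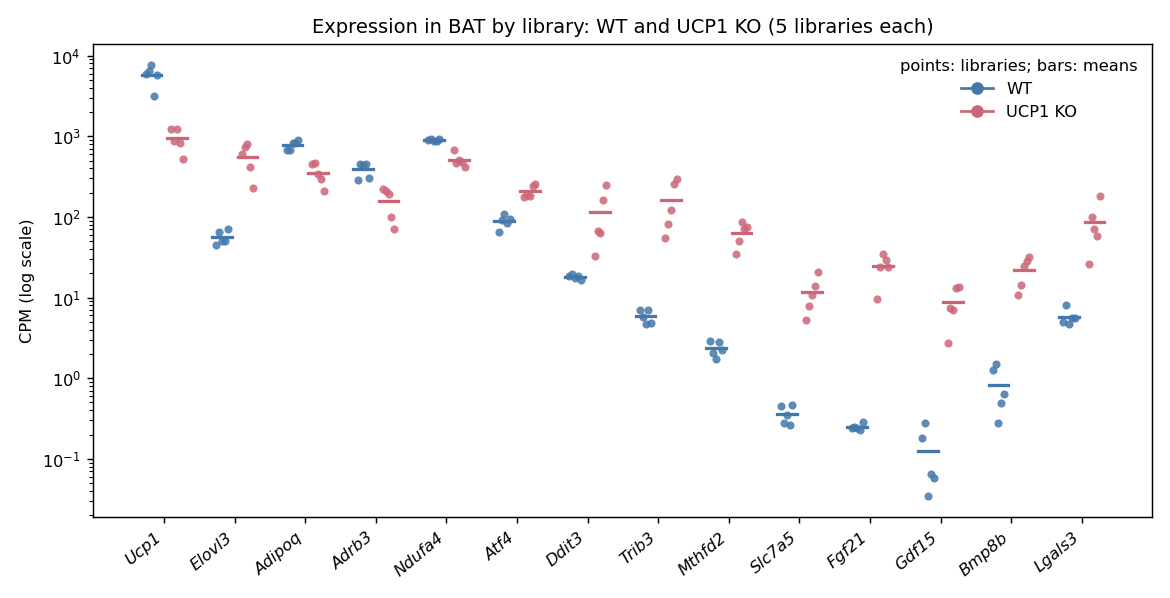
Each point is 1 BAT library and each short bar a group mean (blue, WT, n = 5; red, UCP1 KO, n = 5), with CPM on a log axis. Ucp1, Adipoq, Adrb3 and Ndufa4 were lower in every UCP1 KO library than in any WT library, and the other 10 genes were higher.

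Amino acid genes rose nearly as a block. Of 24 tested genes of serine synthesis, one-carbon metabolism, amino acid transport and tRNA charging, 20 were called higher and none lower, and their median log2 fold change was 1.25. The count was 17 to 20 when single libraries were left out and 20 without UCP1 KO libraries 2, 3 and 4. Mthfd2, the mitochondrial one-carbon enzyme, had 2.86, 2.07, 1.75, 2.83 and 2.26 CPM in WT and 34.4, 49.8, 85.4, 71.7 and 75.6 CPM in UCP1 KO, a 26.8-fold rise (4.75, SE 0.248, edgeR adjusted p = 9.47e-10). Slc7a5, the leucine transporter LAT1, had 0.456, 0.281, 0.350, 0.260 and 0.463 CPM in WT and 5.28, 7.90, 10.9, 13.9 and 21.0 CPM in UCP1 KO, a 32.1-fold rise (5.0, SE 0.355, edgeR adjusted p = 2.98e-08). Slc7a11, the cystine importer, had 2, 0, 0, 1 and 4 counts in the WT libraries and 23, 74, 123, 96 and 91 counts in the UCP1 KO libraries, a log2 fold change of 5.21 (SE 0.628, edgeR adjusted p = 7.06e-06). No UCP1 KO library of these 3 genes overlapped with WT.

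The serine pathway itself was uneven. Psat1, the second enzyme from glycolysis to serine, had 4.65, 3.05, 5.70, 12.5 and 6.37 CPM in WT and 17.2, 27.0, 35.5, 34.1 and 72.6 CPM in UCP1 KO without overlap, a log2 fold change of 2.53 (SE 0.384, edgeR adjusted p = 6.89e-05). Phgdh, the first enzyme, had 9.58, 9.06, 11.8, 14.2 and 10.9 CPM in WT and 11.0, 15.1, 22.0, 28.6 and 68.3 CPM in UCP1 KO. UCP1 KO library 1 lay inside the WT range and library 5 was far above the rest. Its log2 fold change of 1.38 (SE 0.372, edgeR adjusted p = 0.00649) rested on library 5, without which it was 0.79 (adjusted p = 0.0299). The call was also lost without UCP1 KO library 4 (1.39, adjusted p = 0.0114) and without any one of WT libraries 1, 2, 3 and 5 (1.32 to 1.41, up to 0.0179) and in the fit of the 10 libraries (0.0280). Shmt2, which passes the serine carbon to folate, rose by a smaller step, with 21.9 to 24.5 CPM in WT and 27.0 to 46.1 CPM in UCP1 KO (0.56, SE 0.112, edgeR adjusted p = 0.000744). Cth, which makes cysteine, rose too, with 1.33 to 1.79 CPM in WT and 7.67 to 13.3 CPM in UCP1 KO (2.72). Aars, the alanine tRNA synthetase, had 79.1 to 85.04 CPM in WT and 134 to 237 CPM in UCP1 KO (1.08). Cbs, Mars, Slc1a5 and Slc7a3 were not called. UCP1 KO library 5 held the highest value of 14 of the 20 members that rose, library 4 of 3, library 3 of 2 and library 1 of 1.

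Several hormones that BAT releases were among these rises. Of 18 tested genes for secreted factors, 6 were called higher (33.3%, against 13.8% of all genes) and 1 lower (5.56%, against 11.4%), with a median log2 fold change of 0.23. The median was 0.05 without UCP1 KO library 2, 0.13 without WT library 5, 0.40 without UCP1 KO library 5, -0.05 without UCP1 KO libraries 2, 3 and 4 (5 higher, 1 lower), -0.11 with the muscle score as a covariate and 0.50 with plain library totals. Fgf21 (GRCm38, chr7:45613886-45615490, minus strand) had 8, 7, 7, 7 and 10 counts in the WT libraries and 353, 968, 1728, 1489 and 1094 counts in the UCP1 KO libraries. In CPM these were 0.243, 0.246, 0.245, 0.228 and 0.290 in WT and 9.47, 24.2, 35.2, 29.0 and 23.9 in UCP1 KO, a 95.8-fold rise (6.58, SE 0.361, edgeR adjusted p = 1.15e-09), and the lowest UCP1 KO library, library 1, was far above every WT library. Gdf15, a stress hormone that acts on the hindbrain, had 0.183, 0.281, 0.0350, 0.0651 and 0.0579 CPM in WT and 2.74, 7.32, 7.01, 13.1 and 13.6 CPM in UCP1 KO (6.12, SE 0.684, edgeR adjusted p = 3.27e-06). Bmp8b, a BMP ligand of activated brown fat, had 1.25, 1.51, 0.280, 0.488 and 0.637 CPM in WT and 10.9, 14.3, 24.9, 28.7 and 32.2 CPM in UCP1 KO (4.73, SE 0.447, edgeR adjusted p = 6.57e-07). UCP1 KO library 1 was also the lowest of its group for Gdf15 and Bmp8b, and still above all WT libraries. Epdr1, a secreted ependymin-related protein, had 2.83 to 3.32 CPM in WT and 9.98 to 20.8 CPM in UCP1 KO (2.23). The chemokine Cxcl14 was lower, with 16.8, 12.5, 16.9, 22.0 and 15.8 CPM in WT and 7.70, 13.4, 5.64, 8.21 and 6.28 CPM in UCP1 KO (-1.03, SE 0.205, edgeR adjusted p = 0.000739), and UCP1 KO library 2 lay above the lowest WT library. Nrg4, Vegfa and Slit2 were not called, with log2 fold changes of -0.52, -0.26 and 0.48. Vegfa was 0.04 with plain library totals.

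Genes that FGF signalling is known to turn on through ERK also moved. Of 18 tested genes for FGF receptors and ERK feedback, 6 were called higher (33.3%, against 13.8% of all genes) and 1 lower (5.56%, against 11.4%), with a median log2 fold change of 0.50. Dusp4, a phosphatase that switches ERK off, had 17.5, 38.3, 36.9, 34.3 and 31.4 CPM in WT and 62.6, 56.8, 96.4, 97.1 and 78.0 CPM in UCP1 KO (1.30, SE 0.28, edgeR adjusted p = 0.00133). Spred1, an inhibitor of RAF activation, had 21.5, 20.8, 20.3, 17.0 and 18.9 CPM in WT and 36.6, 37.7, 46.6, 63.9 and 45.3 CPM in UCP1 KO (1.23, SE 0.13, edgeR adjusted p = 2.19e-06), and the ETS factor Etv5 had 2.37, 2.77, 2.76, 2.99 and 2.72 CPM in WT and 3.35, 5.02, 5.32, 7.74 and 12.7 CPM in UCP1 KO (1.33, SE 0.238, edgeR adjusted p = 0.000301). The genotypes did not overlap in any of the 3. Etv4 had 2, 1, 2, 5 and 1 counts in WT and 3, 21, 31, 21 and 31 counts in UCP1 KO, where library 1 overlapped with WT (2.66, SE 0.496, edgeR adjusted p = 0.000409). Dusp4 and Etv4 had log2 fold changes of 1.15 and 2.4 without UCP1 KO libraries 2, 3 and 4 and were not called (edgeR adjusted p = 0.0228 and 0.0105). Fgfr1, the main FGF receptor of fat, had 65.3 to 90.4 CPM in WT and 50.9 to 66.0 CPM in UCP1 KO and a log2 fold change of -0.48 (SE 0.0932, edgeR adjusted p = 0.000542), which with plain library totals was -0.18 and not called (adjusted p = 0.149). Klb, its coreceptor, had 46.1 to 56.1 CPM in WT and 50.7 to 72.0 CPM in UCP1 KO and was not called (0.23, SE 0.114, edgeR adjusted p = 0.116), and it was called higher with plain library totals (0.53, adjusted p = 0.0017) and with the muscle score as a covariate (0.41, adjusted p = 0.00234). Dusp6 was not called either, with 21.5 to 58.9 CPM in WT and 46.5 to 90.5 CPM in UCP1 KO.

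Genes that mark brown fat were mostly present at WT level or somewhat below it. Of 29 tested, 2 were called higher and 8 lower, Ucp1 among the latter, and their median log2 fold change was -0.28, which was 0.01 with plain library totals and in both cases 0.29 to 0.30 below the median of all genes. When UCP1 KO libraries 2, 3 and 4 were left out, 5 were called lower and 1 higher. With plain library totals 3 were called lower and 3 higher, and in a fit of the 10 libraries alone 5 lower and 2 higher. Ppargc1b, a coactivator of mitochondrial genes, had 62.0, 67.7, 92.3, 82.4 and 74.1 CPM in WT and 49.2, 34.2, 60.4, 34.4 and 24.2 CPM in UCP1 KO (-0.90, SE 0.213, edgeR adjusted p = 0.00267). Cox8b, a brown fat isoform of a respiratory subunit, had 731, 806, 875, 777 and 852 CPM in WT and 646, 491, 503, 433 and 355 CPM in UCP1 KO (-0.74, SE 0.12, edgeR adjusted p = 0.000129). P2rx5, an ATP-gated channel, had 132, 122, 109, 133 and 109 CPM in WT and 72.4, 78.1, 88.0, 80.2 and 43.0 CPM in UCP1 KO (-0.74, SE 0.159, edgeR adjusted p = 0.00132). In these 3 every UCP1 KO library was below every WT library, whereas for Pank1, the pantothenate kinase of coenzyme A synthesis, UCP1 KO library 1 lay inside the WT range. Pank1 had 407 to 456 CPM in WT and 423, 164, 243, 225 and 198 CPM in UCP1 KO (-0.78, SE 0.177, edgeR adjusted p = 0.00195). Otop1, a proton channel, had 243 to 293 CPM in WT and 123 to 229 CPM in UCP1 KO (-0.66). The calls of Ppargc1b (-1.04, edgeR adjusted p = 0.0107), Pank1 (-0.47, 0.0960) and Otop1 (-0.52, 0.0539) were lost without UCP1 KO libraries 2, 3 and 4, and with plain library totals so were those of Ppargc1b (-0.64, 0.0115), P2rx5 (-0.46, 0.0108) and Otop1 (-0.38, 0.0194). A fit of the 10 libraries alone did not call Ppargc1b (adjusted p = 0.0110) or Pank1 (0.0179), and one with the muscle score as a covariate did not call Pank1 (0.0116) or Otop1 (0.0170).

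Elovl3 and Tbx15 went the other way. Elovl3 encodes an enzyme that lengthens fatty acids and is induced when brown fat is recruited, and it had 45.5, 65.9, 50.1, 50.1 and 70.1 CPM in WT and 597, 743, 809.6, 414 and 226 CPM in UCP1 KO, a 9.90-fold rise without overlap (3.31, SE 0.412, edgeR adjusted p = 1.03e-05). Tbx15, a transcription factor of brown fat and muscle precursors, had 2.65, 2.18, 3.01, 4.29 and 3.97 CPM in WT and 7.43, 25.4, 8.43, 9.65 and 6.74 CPM in UCP1 KO, with its highest value in library 2, the library with the highest muscle score. Its log2 fold change of 1.84 (SE 0.415, edgeR adjusted p = 0.00193) was 1.14 without UCP1 KO libraries 2, 3 and 4 (adjusted p = 0.0629) and 0.87 with the muscle score as a covariate (0.0146). The master regulators were not called: Prdm16 had 22.4 to 38.2 CPM in WT and 18.6 to 34.3 CPM in UCP1 KO, Ebf2 69.1 to 118 and 47.8 to 72.3, and Ppargc1a 35.3 to 175 and 53.0 to 93.5. The lipid droplet protein Cidea (2024 to 2285 CPM in WT, 1326 to 2958 in UCP1 KO) and the respiratory subunit Cox7a1 (387 to 493 and 265 to 484) were not called either, and the genotypes overlapped in all 5. Dio2, which activates thyroid hormone, had 27.3, 96.9, 207, 43.8 and 219 CPM in WT and 377, 48.6, 44.02, 42.0 and 61.0 CPM in UCP1 KO, so that UCP1 KO library 1 was the highest of all 10 and the other 4 were at 42.0 to 61.0. Its log2 fold change was -0.05 with an SE of 0.606, and -1.28 without that library.

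Some general adipocyte genes fell as well. Of 20 tested, 6 were called lower and 1, Fabp5, higher, and without UCP1 KO libraries 2, 3 and 4 there were 2 lower and none higher. Fabp5 was also not called without UCP1 KO library 2 or 3 or any one WT library, or in the fit of the 10 libraries. The median log2 fold change was -0.25, and it was 0.02 with plain library totals and -0.40 without UCP1 KO library 1. Cebpa, a transcription factor of adipocyte differentiation, had 494, 438, 417, 534 and 584 CPM in WT and 279, 210.2, 223, 164 and 145 CPM in UCP1 KO (-1.27, SE 0.135, edgeR adjusted p = 2.03e-06). Adipoq, adiponectin, had 685, 681, 834, 822 and 899 CPM in WT and 458, 462, 340.2, 295 and 209 CPM in UCP1 KO (-1.15, SE 0.172, edgeR adjusted p = 5.97e-05). Rbp4, the retinol carrier, had 79.4, 94.6, 95.2, 115 and 89.6 CPM in WT and 68.0, 32.0, 26.8, 18.6 and 19.5 CPM in UCP1 KO (-1.52, SE 0.304, edgeR adjusted p = 0.000737). No UCP1 KO library reached the WT range in these 3 genes, and library 5 was the lowest for Adipoq and Cebpa. Cfd, adipsin, ranged over 207 to 967 CPM in WT and 68.3 to 227 CPM in UCP1 KO with overlap (-2.25, SE 0.546, edgeR adjusted p = 0.00333). Without UCP1 KO libraries 2, 3 and 4 Cfd (-1.91, edgeR adjusted p = 0.0765) and Rbp4 (-1.11, 0.0441) were not called, and Cfd also lost its call without UCP1 KO library 4 (-2.09, 0.0104) or WT library 5 (-2.01, 0.0102). In bulk tissue, fewer cells of a type and less RNA per cell cannot be told apart.

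**Figure D3:**
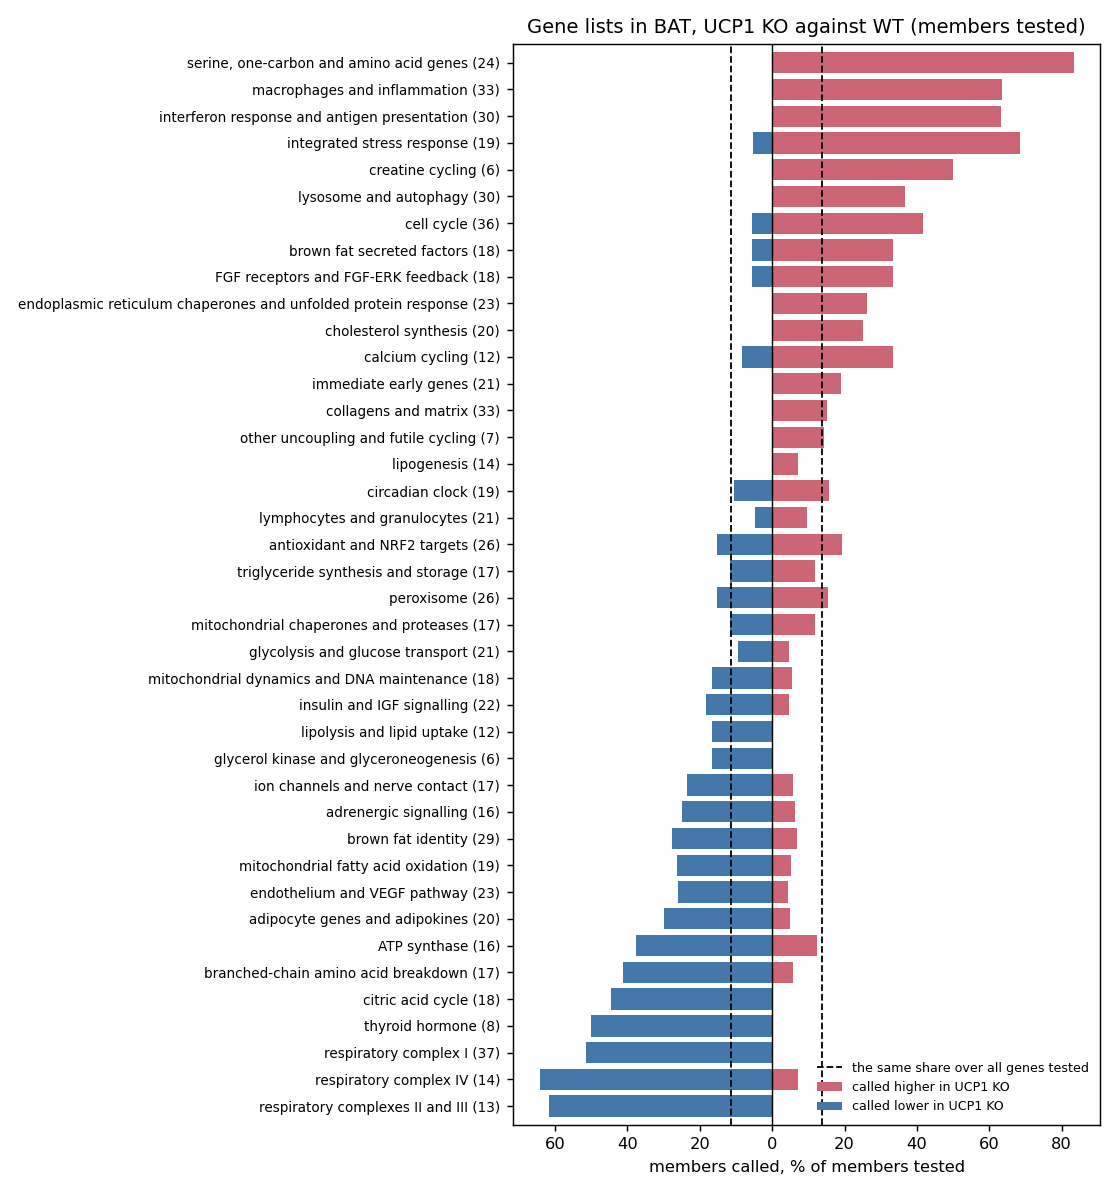
Each row is a gene list with the number of members tested, red bars to the right are the percent of members called higher and blue bars to the left the percent called lower in UCP1 KO (edgeR adjusted p under 0.01, 5 against 5 libraries), and dashed lines are the same shares over all genes tested, 13.8% and 11.4%. The amino acid, integrated stress response, macrophage and interferon lists extend far to the right, with 20 of 24 serine, one-carbon and amino acid genes called higher, and the respiratory chain lists to the left, with 19 of 37 complex I genes called lower.

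Nuclear genes of the respiratory chain were lower by small steps under TMM scaling. Of 37 tested complex I genes, 19 were called lower and none higher, with a median log2 fold change of -0.33. In complexes II and III, 8 of 13 were called lower and none higher (median -0.41), in complex IV 9 of 14 lower and 1 higher (median -0.45), in ATP synthase 6 of 16 lower and 2 higher (median -0.20) and in the citric acid cycle 8 of 18 lower and none higher (median -0.31). Among single genes of the respiratory chain as a whole, Ndufa4 had 896, 925, 887, 866 and 916 CPM in WT and 678, 469.9, 503, 481 and 419.7 CPM in UCP1 KO, which is a log2 fold change of -0.82 (SE 0.0986, edgeR adjusted p = 7.27e-06). Uqcrh, the hinge protein of complex III, had 659, 686, 676, 644 and 716 CPM in WT and 489, 347, 344, 304 and 312 CPM in UCP1 KO (-0.91, SE 0.11, edgeR adjusted p = 7.17e-06), and Cox6c of complex IV had 788, 810.5, 784, 749 and 786 CPM in WT and 585, 422, 457, 399 and 335 CPM in UCP1 KO (-0.83, SE 0.104, edgeR adjusted p = 9.85e-06). The WT libraries of these genes lay close together, and every UCP1 KO library was lower, library 1 the least. Full separation also held for Ndufa1 (-0.98), Uqcr11 (-0.82), the complex II anchor Sdhd (-0.69, but -0.54 with an edgeR adjusted p of 0.0106 without UCP1 KO libraries 2, 3 and 4), Atp5k of ATP synthase (-0.81) and fumarase, Fh1 (-0.59). Library 5 held the lowest value of 18 of the 19 complex I genes called lower and of 8 of the 9 complex IV genes.

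These falls depended on the scaling in size and number. With plain library totals, 4 of 37 complex I, 4 of 13 complex II and III, 5 of 14 complex IV, 4 of 16 ATP synthase and 4 of 18 citric acid cycle genes were called lower, and the medians were -0.04, -0.12, -0.16, 0.08 and -0.02. Set against the median of all genes in the same fit, the complex I median was 0.34 lower with TMM factors and 0.35 lower with plain totals, and the complex IV median 0.46 and 0.47 lower. Without UCP1 KO libraries 2, 3 and 4, 4 complex I, 3 complex II and III, 3 complex IV, 3 ATP synthase and 4 citric acid cycle genes were called lower, and the medians were -0.29, -0.38, -0.42, -0.20 and -0.19. In the fit of the 10 libraries alone, 7 complex I genes were called lower. The rises in ATP synthase were 1 in that fit, without UCP1 KO library 2 or 5 or any one WT library, and with the muscle score as a covariate. Without UCP1 KO library 1 the count was 31 for complex I and 13 for the citric acid cycle, and without library 2 it was 5 for complexes II and III. The rise in complex IV was Cox6a2, the heart and muscle isoform of subunit 6A, which had 0.183, 0.211, 0.455, 0.423 and 0.0290 CPM in WT and 4.61, 43.3, 18.8, 20.5 and 36.7 CPM in UCP1 KO (6.59, SE 0.816, edgeR adjusted p = 9.38e-06). It was highest in library 2, the library with the highest muscle score, and library 5, whose muscle score lay within the WT range, was next. Without the 3 libraries of high muscle score its log2 fold change was 6.34.

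Fatty acid oxidation and branched-chain amino acid breakdown, 2 other mitochondrial pathways of brown fat, had falls as well. Of 19 tested oxidation genes 5 were called lower and 1 higher, with a median log2 fold change of -0.29, which with plain library totals became 0.00 with 1 lower and 3 higher. With the 3 libraries of high muscle score left out, 1 was called lower and 1 higher, and the median was -0.17. Without UCP1 KO library 1 the count of falls was 10, and it was 3 without any other one of the UCP1 KO libraries or WT library 2, 3 or 5. Acaa2, the last thiolase of the spiral, had 2255 to 2452 CPM in WT and 1377 to 2002 CPM in UCP1 KO (-0.52, SE 0.0805, edgeR adjusted p = 8.28e-05). Cpt1a, the liver isoform of the enzyme that admits fatty acids to mitochondria, rose, with 24.6, 25.9, 27.8, 26.7 and 29.9 CPM in WT and 47.8, 50.5, 60.4, 82.1 and 160.1 CPM in UCP1 KO (1.57, SE 0.252, edgeR adjusted p = 0.000117). Its highest value was in library 5, and the lowest UCP1 KO library was above all WT libraries. Of 17 branched-chain genes 7 were called lower and 1 higher (median -0.35), and without those 3 libraries 3 were lower. With plain library totals 2 were lower and 2 higher (median -0.07). Ivd, isovaleryl-CoA dehydrogenase, had 261, 261, 284, 291 and 271 CPM in WT and 178, 155, 139, 138 and 111 CPM in UCP1 KO (-0.92, SE 0.0919, edgeR adjusted p = 1.18e-06), and Pccb, of propionyl-CoA carboxylase, had a log2 fold change of -0.61 (adjusted p = 6.71e-06).

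Lipid synthesis genes spread widely between the UCP1 KO libraries. Of 14 tested lipogenesis genes, 1, Scd2, was called higher (7.14%, against 13.8% of all genes) and none lower (against 11.4%), with a median log2 fold change of -0.20. Without UCP1 KO libraries 2, 3 and 4 none was called higher and 1 lower, and the median was -0.75, with -1.53 for Fasn (edgeR adjusted p = 0.109) and -1.62 for Acaca (0.0314). Single libraries left out moved it from -0.02 without UCP1 KO library 5 to -0.44 without library 3, and with plain library totals it was 0.06 with 3 called higher. Fasn, fatty acid synthase, had 23084, 25597, 14098, 23690.0 and 14339 CPM in WT and 12190.3, 23140.0, 22962, 7015 and 1762 CPM in UCP1 KO (-0.59, SE 0.521, edgeR adjusted p = 0.385). Scd1, the main desaturase of fat, had 73030.2, 77940.3, 62163, 76312 and 64806 CPM in WT and 68829, 81402, 85698, 44016 and 21019 CPM in UCP1 KO (-0.24, SE 0.274, edgeR adjusted p = 0.518). For both genes UCP1 KO libraries 2 and 3 were within or above the WT range and libraries 4 and 5 below it, library 5 the lowest of all 10. Acaca, acetyl-CoA carboxylase, was also lowest in library 5, with 1193, 2732, 2905, 1301 and 317 CPM in UCP1 KO against 1607 to 2778 in WT, and was not called. Of 17 genes for triglyceride synthesis and storage 2 were called higher and 2 lower (11.8% each), close to the shares of all genes. Without UCP1 KO libraries 2, 3 and 4, 2 were higher and none lower. Under plain library totals 4 were higher and 2 lower. Plin2, the coat of small lipid droplets, had 796, 1039, 798, 913 and 899 CPM in WT and 1613, 2495, 2979.7, 1866 and 2761 CPM in UCP1 KO (1.40, SE 0.219, edgeR adjusted p = 9.01e-05). Dgat2, which completes triglycerides, had 1357, 1612, 1523, 1344 and 1601 CPM in WT and 1183, 727, 978, 754 and 486 CPM in UCP1 KO (-0.85, SE 0.171, edgeR adjusted p = 0.00079), and was not called without UCP1 KO libraries 2, 3 and 4 (-0.83, adjusted p = 0.0185). The genotypes were separate in both genes. Lpl, lipoprotein lipase, had 1708 to 2822 CPM in WT and 2464 to 4515 CPM in UCP1 KO and was not called (0.55, SE 0.186, edgeR adjusted p = 0.0239), while DESeq2 called it (0.56, adjusted p = 0.00804), as did the fit with plain library totals (0.84, 0.00109). Of 21 genes for glucose use 1 was called higher (4.76%) and 2 lower (9.52%), both below the shares of all genes. There were 7 higher and none lower under plain library totals, and 2 higher and none lower without UCP1 KO libraries 2, 3 and 4. Without UCP1 KO library 1 there were 2 higher and 3 lower, and 2 were higher also without library 2 or 3. Hk1, a hexokinase, had 58.1, 81.3, 51.0, 51.6 and 49.4 CPM in WT and 141, 134, 165, 165 and 201 CPM in UCP1 KO (1.47, SE 0.188, edgeR adjusted p = 1.25e-05). Pck1, the enzyme of glyceroneogenesis, and Pdk4, which shuts pyruvate out of oxidation, were each highest of all 10 libraries in UCP1 KO library 1, and neither was called. Pck1 had 3708 to 6471 CPM in WT and 6904, 1438, 2287, 2154 and 2623 CPM in UCP1 KO, and Pdk4 3486 to 5278 CPM in WT and 6614, 2489, 2967, 2544 and 3312 CPM in UCP1 KO.

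Pathways proposed to make heat without UCP1 were examined next. Of 6 tested creatine cycling genes 3 were called higher, and of 12 tested calcium cycling genes 4 were called higher and 1 lower. These counts were 2, and 1 higher with 1 lower, without UCP1 KO libraries 2, 3 and 4. Without WT library 1 there was 1 creatine gene higher, and 2 calcium genes were higher without UCP1 KO library 2 or any one WT library. The largest changes were in genes known from muscle. Ckmt2, mitochondrial creatine kinase, had 0.578, 0.421, 1.504, 1.04 and 0.232 CPM in WT and 0.992, 112, 9.09, 3.81 and 0.633 CPM in UCP1 KO, and Atp2a1, the calcium pump SERCA1, 6.91, 8.95, 27.7, 28.1 and 4.92 CPM in WT and 15.4, 2014, 164, 85.2 and 16.1 CPM in UCP1 KO. Libraries 2, 3 and 4, those with the high muscle score, were above WT, and libraries 1 and 5 overlapped with it. Their log2 fold changes of 5.07 (SE 1.46, edgeR adjusted p = 0.00984) and 4.91 (SE 1.41, edgeR adjusted p = 0.00989) fell to 0.11 and 0.05 without the 3 libraries (edgeR adjusted p = 0.968 and 0.984) and turned to -0.28 and -0.11 with the muscle score as a covariate. Both calls were also lost in fits without UCP1 KO library 2 (2.30 and 2.20, adjusted p = 0.123 and 0.109) or 3 (5.29 and 5.12, 0.0107 and 0.0109), without any one WT library (4.69 to 5.49, 0.0178 to 0.0264), with the 10 libraries alone and with no filter on low counts (0.0107 and 0.0108).

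Alpl and Atp2a3 kept their calls without those libraries. Alpl, an alkaline phosphatase placed in the creatine cycle of fat, had 19.9, 21.0, 20.7, 17.4 and 23.7 CPM in WT and 67.1, 49.3, 54.7, 39.5 and 44.6 CPM in UCP1 KO (1.31, SE 0.151, edgeR adjusted p = 4.59e-06), and 1.44 without the 3 libraries. Atp2a3, the calcium pump SERCA3, had 13.3, 14.3, 14.6, 15.9 and 14.3 CPM in WT and 47.5, 65.2, 88.9, 86.8 and 155 CPM in UCP1 KO, a 6.13-fold rise (2.62, SE 0.232, edgeR adjusted p = 3.43e-07), and 2.81 without them. Both were separate from WT. Ckb, the brain-type creatine kinase, had 13.1, 15.4, 17.3, 17.1 and 21.2 CPM in WT and 36.8, 14.4, 25.3, 56.3 and 156 CPM in UCP1 KO, where library 2 was inside the WT range and library 5 by far the highest (1.78, SE 0.436, edgeR adjusted p = 0.00353). Without library 5 it was 0.98 (adjusted p = 0.0137), and the call was also lost without WT library 1 (1.70, 0.0105) and in the fit of 10 libraries (0.0259). Atp2a2, the pump SERCA2 proposed for beige fat, had 256 to 299.7 CPM in WT and 322 to 458 CPM in UCP1 KO (0.42, SE 0.099, edgeR adjusted p = 0.00263), and was not called without the 3 libraries (0.40, 0.0179) or with the muscle score as a covariate (0.32, 0.0255). The creatine transporter Slc6a8 was not called (0.19). Among relatives of UCP1, Ucp2 had 46.2, 41.0, 42.9, 42.3 and 41.3 CPM in WT and 91.4, 103, 127, 145 and 205 CPM in UCP1 KO, a 3.14-fold rise without overlap (1.65, SE 0.192, edgeR adjusted p = 5.02e-06), and Ucp3, with 159 to 244 CPM in WT and 40.1 to 210.0 CPM in UCP1 KO, was not called. Pm20d1, which makes N-acyl amino acid uncouplers, had 29.4 to 35.8 CPM in WT and 13.7 to 33.6 CPM in UCP1 KO (-0.59, SE 0.174, edgeR adjusted p = 0.0119), and DESeq2 called it lower (-0.57, adjusted p = 0.00461).

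Some receptors through which nerves and thyroid hormone act on BAT fell. Of 16 tested adrenergic genes 4 were called lower (25%) and 1, the constitutively active receptor Gpr3, higher (6.25%). Of 8 thyroid hormone genes 4 were called lower (50%) and none higher. The shares of all genes were 11.4% lower and 13.8% higher. Without UCP1 KO libraries 2, 3 and 4, 2 adrenergic genes were lower and 2 higher and 3 thyroid hormone genes lower. Without UCP1 KO library 1, 8 adrenergic genes were lower, and under plain library totals 2 were lower and 2 higher. Adrb3, the beta-3 adrenergic receptor, had 287, 459, 435, 453 and 306 CPM in WT and 219.9, 209.7, 194, 99.7 and 69.9 CPM in UCP1 KO (-1.29, SE 0.256, edgeR adjusted p = 0.000694). Adra1d, an alpha-1 receptor, had 16.2, 18.2, 14.9, 19.1 and 13.8 CPM in WT and 7.46, 6.57, 4.81, 4.79 and 8.14 CPM in UCP1 KO (-1.37, SE 0.166, edgeR adjusted p = 7.16e-06). Thrb, a thyroid hormone receptor, had 52.8, 52.2, 51.4, 113 and 97.3 CPM in WT and 29.1, 27.7, 25.4, 37.7 and 20.9 CPM in UCP1 KO (-1.38, SE 0.241, edgeR adjusted p = 0.000234). All 3 were separate between the genotypes. Over the adrenergic list the log2 fold changes ran from -1.37 to 4.02, so that its largest change was a rise. Of 17 tested ion channel and nerve contact genes 4 were called lower (23.5%) and 1, Gdnf, higher (5.88%). Without UCP1 KO libraries 2, 3 and 4, 2 were lower. Ntrk3, the neurotrophin-3 receptor, had 238, 267, 190.5, 245 and 208 CPM in WT and 53.5, 54.2, 72.4, 24.1 and 8.16 CPM in UCP1 KO (-2.44, SE 0.402, edgeR adjusted p = 0.000148), with the lowest value in library 5.

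Other stress lists held fewer called members than the integrated stress response. Of 23 tested genes of the endoplasmic reticulum and its unfolded protein response 6 were called higher (26.1%, against 13.8% of all genes) and none lower, with a median log2 fold change of 0.18. The sensor Ern1 had 8.71 to 9.41 CPM in WT and 13.7 to 54.6 CPM in UCP1 KO (1.65), and the sensor Atf6 52.4 to 60.1 CPM and 78.5 to 156 CPM (0.84). Hspa5, the chaperone BiP, had 259, 272, 272, 240.3 and 275 CPM in WT and 324, 294, 316, 448 and 662 CPM in UCP1 KO (0.63, SE 0.161, edgeR adjusted p = 0.0045), and lost its call without UCP1 KO library 4 (0.60, adjusted p = 0.0118) or WT library 1 (0.62, 0.0103) or 4 (0.60, 0.0125), or in the fit of the 10 libraries alone (0.64, 0.0317). Xbp1 was not called (0.11). With plain library totals 15 of the 23 genes were called higher, and 5 without UCP1 KO libraries 2, 3 and 4.

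In the mitochondria, 2 of 17 tested chaperone and protease genes were called higher and 2 lower (11.8% each), close to the 13.8% and 11.4% of all genes. With plain library totals 7 were called higher and none lower, and without UCP1 KO libraries 2, 3 and 4 there were 3 and 2. Lonp1, the matrix protease LON, had 268, 305, 274, 284 and 271 CPM in WT and 436, 576, 869, 968 and 1304 CPM in UCP1 KO (1.57, SE 0.211, edgeR adjusted p = 2.1e-05), and Hspa9, the matrix chaperone mortalin, 1569 to 1682 CPM in WT and 1909 to 3041 CPM in UCP1 KO (0.64, SE 0.104, edgeR adjusted p = 0.000125). Neither overlapped between the genotypes. Of 26 antioxidant genes 5 were called higher (19.2%) and 4 lower (15.4%), the latter 2 without UCP1 KO library 4 or any one of WT libraries 2 to 5. Under plain library totals 15 were called higher and 1 lower. Hmox1, heme oxygenase 1, had 9.77, 9.06, 7.31, 11.1 and 10.0 CPM in WT and 15.3, 37.7, 23.5, 34.8 and 57.1 CPM in UCP1 KO (1.83, SE 0.262, edgeR adjusted p = 3.89e-05), and lies on chromosome 8 within 10 Mb of Ucp1. Nqo1, a quinone reductase controlled by NRF2, rose as well, with 1.36 to 1.82 CPM in WT and 2.31 to 7.79 CPM in UCP1 KO (1.55, SE 0.232, edgeR adjusted p = 6.27e-05), while Nfe2l2, which encodes NRF2, was not called (0.29, SE 0.116, edgeR adjusted p = 0.0544) except with plain library totals (0.61, 0.00231). Of 30 lysosome and autophagy genes 11 were called higher and none lower (median 0.22), 9 of them without UCP1 KO libraries 2, 3 and 4, 7 without UCP1 KO library 5 or WT library 1 or 3, 6 without WT library 2 and 21 with plain library totals. Of 20 cholesterol synthesis genes 5 were called higher and none lower (median 0.27), with 3 higher and 1 lower (median 0.01) without those libraries, 10 higher with plain library totals, 9 higher without UCP1 KO library 1 and 3 without UCP1 KO library 3 or WT library 3 or 5. The median was 0.17 without WT library 5 and 0.18 without UCP1 KO library 4. Of 26 peroxisome genes 4 were called higher and 4 lower (15.4% each), the former 2 without UCP1 KO library 1 or 3 or WT library 1, 3 or 4. With plain library totals 11 were called higher and none lower, and without UCP1 KO libraries 2, 3 and 4 there were 3 and 2.

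Many macrophage and inflammation genes rose in UCP1 KO BAT. Of 33 tested macrophage and inflammation genes 21 were called higher and none lower, with a median log2 fold change of 1.30. The summed CPM of 8 macrophage marker genes, with plain library totals, ran from 84.9 to 104.6 in WT and reached 130.4 to 370.0 in UCP1 KO, 6 of the 8 were called higher, and none was at 0 in WT. Adgre1, which encodes F4/80, had 8.82, 9.55, 7.13, 9.01 and 6.20 CPM in WT and 13.2, 30.7, 9.09, 19.9 and 32.3 CPM in UCP1 KO (1.37, SE 0.323, edgeR adjusted p = 0.0027). Cd68 had 5.20, 6.005, 5.14, 6.57 and 6.57 CPM in WT and 9.74, 32.6, 12.4, 20.9 and 27.7 CPM in UCP1 KO (1.81, SE 0.284, edgeR adjusted p = 9.32e-05), and Lgals3, galectin-3 of lipid-laden macrophages, 5.02, 8.04, 4.69, 5.63 and 5.56 CPM in WT and 26.1, 100.2, 70.8, 57.8 and 184 CPM in UCP1 KO (3.92, SE 0.466, edgeR adjusted p = 6.26e-06). Adgre1 overlapped between the genotypes through library 3, and Cd68 and Lgals3 did not. The integrin Itgax had 0.553 to 1.12 CPM in WT and 3.33 to 8.17 CPM in UCP1 KO (2.65), and the chemokine Ccl2 0.315 to 0.608 CPM and 1.05 to 9.42 CPM (3.12). The cytokine Tnf was not called (1.07, SE 0.467, edgeR adjusted p = 0.0759). Library 2 held the highest value of 15 of the 21 and library 5 of the other 6, and 17 were called without UCP1 KO libraries 2, 3 and 4. Markers of other cell types moved in the same libraries. The score of 8 fibroblast and progenitor genes was 6.08 in library 2 and 5.58 in library 5 and at most 5.31 in WT, and none of the 8 was called. Of 6 smooth muscle genes none was called, and their score was 4.07 in library 2 and at most 3.71 in WT. The score of 8 lymph node genes was above the highest WT value of -0.73 in UCP1 KO libraries 2 to 5 (-0.71 to 0.01), with a summed CPM between 3.13 and 4.52 in WT libraries and between 3.47 and 8.43 in UCP1 KO libraries. None of the 7 tested was called. The part of each cell type in these rises was not tested.

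Interferon response and antigen presentation genes that rose were mostly highest in library 2. Of 30 tested, 19 were called higher and none lower (median 1.01), and library 2 was the highest for 16 of the 19. Mx1, an antiviral GTPase, had 0.639, 0.597, 0.385, 0.683 and 0.637 CPM in WT and 2.01, 28.2, 4.22, 8.06 and 14.5 CPM in UCP1 KO (4.26, SE 0.85, edgeR adjusted p = 0.000728). Irf7, a driver of interferon production, had 11.8, 13.6, 10.49, 10.4 and 12.6 CPM in WT and 16.1, 159.7, 36.6, 74.5 and 73.4 CPM in UCP1 KO (2.61, SE 0.632, edgeR adjusted p = 0.00322). The chemokine Cxcl10 had 1.16, 0.597, 0.420, 0.358 and 0.956 CPM in WT and 3.46, 26.3, 4.26, 11.2 and 20.7 CPM in UCP1 KO (4.22, SE 0.736, edgeR adjusted p = 0.00023), and the antigen-presenting class II gene H2-Aa 61.5 to 66.4 CPM in WT and 92.7 to 179 CPM in UCP1 KO (1.02). All UCP1 KO libraries, the others included, were above WT for these 4 genes. The count was 13 without UCP1 KO library 2 and 13 to 17 without single WT libraries, and 25 without UCP1 KO library 1. Without library 2 Irf7 was 2.09 (adjusted p = 0.0111). Without libraries 2, 3 and 4, 8 were called and Irf7 was 1.93 (0.0553).

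Part of the cell cycle list was higher in UCP1 KO BAT. Of 36 tested 15 were called higher and 2 lower (median 0.70), and 11 higher and 1 lower without UCP1 KO libraries 2, 3 and 4. Mki67, the proliferation marker Ki-67, had 1.52, 1.37, 1.47, 1.37 and 1.68 CPM in WT and 6.49, 6.80, 4.85, 4.88 and 6.02 CPM in UCP1 KO (1.97, SE 0.246, edgeR adjusted p = 1.04e-05). Thymidine kinase, Tk1, had 0.211 to 0.455 CPM in WT and 0.992 to 3.62 CPM in UCP1 KO (2.51), and the mitotic kinase Aurkb 0.0651 to 0.385 and 0.631 to 1.51 CPM (2.4). None of the 3 overlapped between the genotypes. The members that rose had their highest value in library 1 for 6, library 5 for 6, library 2 for 2 and library 4 for 1. Of 23 tested endothelial and VEGF pathway genes 6 were called lower (26.1%, against 11.4% of all genes) and 1 higher (4.35%, against 13.8%). Without UCP1 KO libraries 2, 3 and 4, 2 were lower. Angpt1, a ligand that steadies vessels, had 31.4, 19.0, 21.8, 38.0 and 22.0 CPM in WT and 12.2, 8.50, 7.17, 9.87 and 6.37 CPM in UCP1 KO (-1.59, SE 0.276, edgeR adjusted p = 0.000227), and was not called without libraries 2, 3 and 4 (-1.51, 0.0123). Vegfb, a VEGF of oxidative tissues, had 87.3 to 96.0 CPM in WT and 43.7 to 72.1 CPM in UCP1 KO (-0.73, SE 0.104, edgeR adjusted p = 3.72e-05), and both were separate from WT. Of 8 endothelial marker genes 2 were called lower. Their score, 6.31 to 6.62 in WT, was above that range in UCP1 KO libraries 4 and 5 (6.85 and 6.86) and below it in library 2 (6.21). Their summed CPM lay between 817 and 977 in WT and between 729.8 and 1200.5 in UCP1 KO.

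Whether FGF21 changes this response was asked with the mice that lack it. Loss of UCP1 on the FGF21-deficient background, dKO against FGF21 KO, shares no library with UCP1 KO against WT, and 2129 of 15729 genes were called there (13.5%). Both comparisons called 1746 genes, 44% of the calls of UCP1 KO against WT and 82.0% of those of dKO against FGF21 KO, and all 1746 had the same direction. Of all 3965 genes called with FGF21 present, 3937 (99.3%) had the same direction without it. The sizes differed for some lists. Medians with and without FGF21 were 1.91 and 1.51 for the stress response, 1.30 and 0.76 for macrophage genes and -0.33 and -0.17 for complex I. For cell cycle genes they were 0.70 and 0.75, and for branched-chain genes -0.35 and -0.38. Without FGF21, 6 macrophage genes were called higher (21 with it), 2 interferon genes higher (19) and 6 complex I genes lower (19). Among genes with large rises, Mthfd2 had 2.45 ± 0.391 CPM in FGF21 KO and 62.9 ± 13.8 CPM in dKO (mean ± SD, n = 5), Slc7a5 0.474 ± 0.205 and 8.74 ± 1.14 CPM, and Elovl3 103 ± 43.0 and 833 ± 431 CPM. Their log2 fold changes on that background were 4.68, 4.22 and 3.01, beside 4.75, 5.0 and 3.31 with FGF21. The muscle score also varied on that background, from 1.23 to 4.88 in FGF21 KO and from 2.85 to 8.56 in dKO.

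The difference between the 2 responses was tested as an interaction in the same edgeR fit, and 0 of 15729 genes were called (0.0%). There were 845 genes with an unadjusted p under 0.05, the smallest adjusted p was 0.0102, and DESeq2 called 1 gene. Among the FGF receptor and ERK feedback genes, 7 of 18 had an unadjusted p under 0.05 (38.9%, against 5.37% of all genes), 6 of them more positive with FGF21 present. The list was chosen with earlier results of these data known, so this share is a description and not a test. Etv5 and Spred1, given below, were among the 10 genes with the smallest p for this difference. Dusp4 had 31.7 ± 8.37 CPM in WT, 78.2 ± 18.6 in UCP1 KO, 19.3 ± 4.90 in FGF21 KO and 17.5 ± 7.5 in dKO, log2 fold changes of 1.30 with and -0.14 without FGF21 (edgeR, unadjusted p = 0.00166). Etv5 had 2.72 ± 0.223, 6.83 ± 3.64, 2.76 ± 0.170 and 2.35 ± 0.221 CPM in the same order, 1.33 with and -0.23 without FGF21 (edgeR, unadjusted p = 0.000179). Spred1 had 19.7 ± 1.78, 46.0 ± 11.0, 18.01 ± 1.32 and 24.0 ± 3.58 CPM, 1.23 with and 0.41 without FGF21 (edgeR, unadjusted p = 0.000268). In these 3 genes the UCP1 KO mean was the highest of the 4 genotypes, and the differences did not pass the adjustment over all genes. Of the macrophage list 9 of 33 and of the stress response list 4 of 19 had an unadjusted p under 0.05, all 13 more positive with FGF21 present, as were 531 of the 845 among all genes. Cpt1a, with 80.2 ± 46.7 CPM in UCP1 KO and 27.9 ± 5.66 in dKO, had log2 fold changes of 1.57 with and 0.27 without FGF21 (edgeR, unadjusted p = 0.00146).

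**Figure D4:**
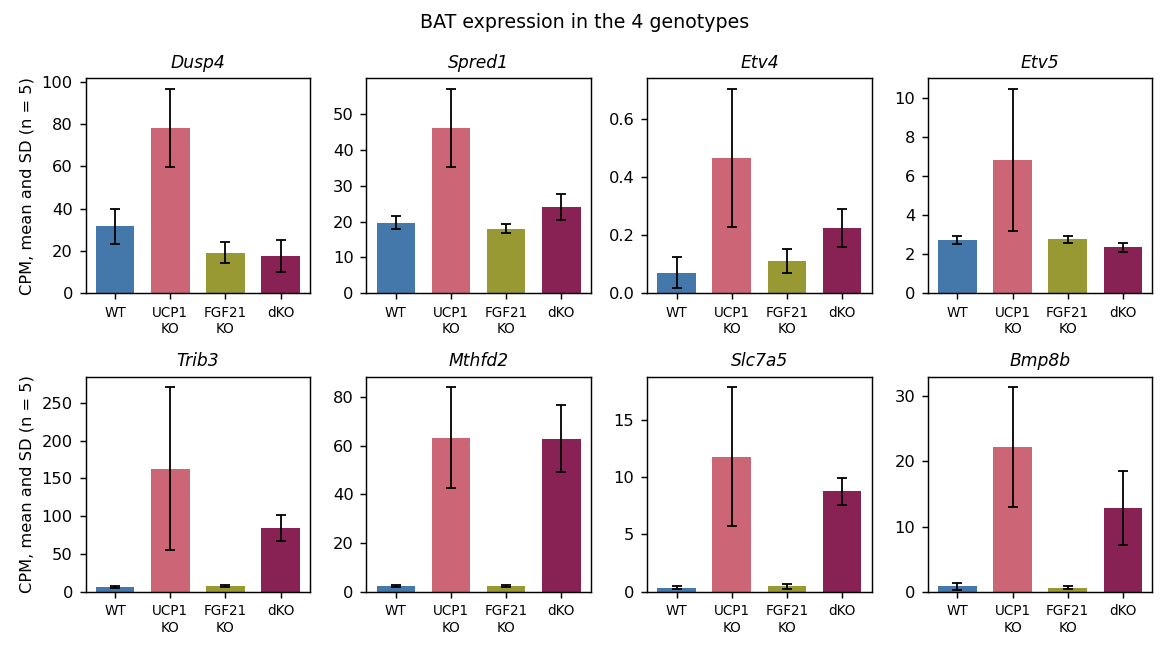
Bars are mean CPM and error bars SD of 5 BAT libraries in each of the 4 genotypes, on axes that start at 0 and differ between genes. Dusp4, Spred1, Etv4 and Etv5 had their highest mean in UCP1 KO, and Trib3, Mthfd2, Slc7a5 and Bmp8b were high in both UCP1 KO and dKO.

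The BAT response was last set beside that of inguinal white fat (iWAT) of the same groups, 5 iWAT libraries labelled UCP1 KO and 5 labelled WT, in a joint fit of both tissues. The labels do not tie the libraries to single mice, so that both tissues may come from the same mice, and the fit has no term for the mouse. In iWAT Ucp1 was counted higher in the libraries labelled UCP1 KO than in WT (log2 fold change 5.65). Ucp1 reads also remained in UCP1 KO BAT (529.8 to 1238 CPM), so this count does not check the iWAT labels either way, and directions there rest on the labels. The effect of genotype differed between the tissues in 919 of 16843 genes (5.46%), 213 more positive (1.26%) and 706 more negative (4.19%) in BAT. That count was 1740 with DESeq2 and 1510 when a lymph node score was added as a covariate, and from 537 without iWAT UCP1 KO library 3 to 1864 without iWAT UCP1 KO library 2. It was also 1480 without BAT UCP1 KO library 1, 596 without iWAT UCP1 KO library 4 and 573 without iWAT WT library 4.

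Most nuclear respiratory chain genes were among those more negative in BAT. Of 37 complex I genes 31 were more negative in BAT, as were all 13 of complexes II and III, 13 of 14 of complex IV, 9 of 16 of ATP synthase, 16 of 18 of the citric acid cycle and 13 of 19 of fatty acid oxidation, where 1 was more positive. In iWAT 32 of the 37 complex I genes were called higher, against 3.85% of all genes, with a median log2 fold change of 0.89. Of the 29 brown fat identity genes 16 were more negative in BAT and none more positive. Cidea had log2 fold changes of -0.09 in BAT and 4.90 in iWAT, a difference of -4.98 (edgeR adjusted p = 0.000158). Otop1 had -0.66 and 3.41 (-4.06, adjusted p = 0.000115), Cox7a1 -0.28 and 3.56 (-3.84, 0.000813) and P2rx5 -0.74 and 2.24 (-2.98, 4.14e-05). Elovl3 rose in both tissues, by 3.31 in BAT and 8.38 in iWAT, and the difference was called (-5.07, 9e-05).

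Amino acid and stress genes differed in the other direction where they differed. Of 24 serine, one-carbon and amino acid genes 8 were more positive in BAT and none more negative, and of 19 stress response genes 4 and none. Slc7a5 had log2 fold changes of 5.0 in BAT and 0.17 in iWAT, a difference of 4.84 (edgeR adjusted p = 0.000335), Mthfd2 4.75 and 0.98 (3.77, 0.000529) and Psat1 2.53 and -0.10 (2.64, 0.00165). For Gdf15 the difference was 3.80 (0.00328), for Aldh18a1 2.84 (0.000597) and for Atf4 0.86 (0.005). Fgf21 itself rose in both, by 6.58 in BAT and 5.39 in iWAT, and the difference of 1.20 was not called (edgeR adjusted p = 0.488).

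**Figure D5:**
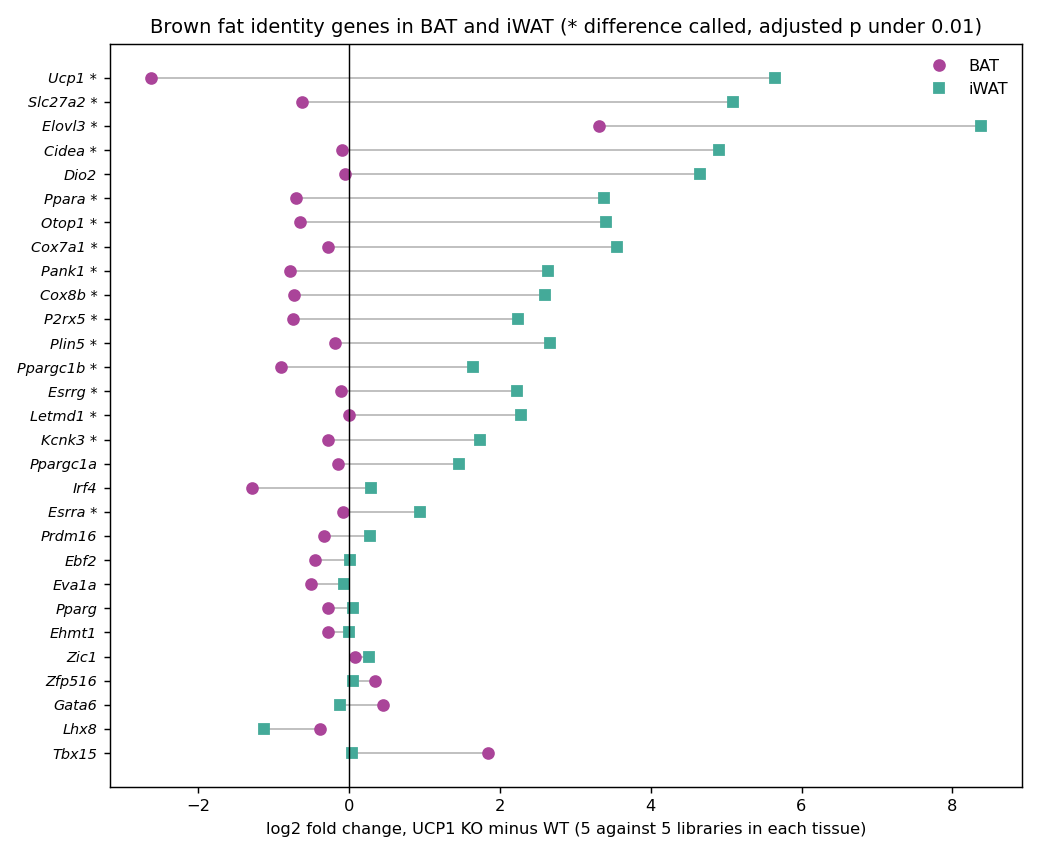
For each brown fat identity gene, the circle is the log2 fold change of UCP1 KO minus WT in BAT and the square that in iWAT (5 against 5 libraries in each), and an asterisk marks a called difference (edgeR adjusted p under 0.01). Most genes lay at or left of 0 in BAT and right of 0 in iWAT, with Ucp1 at -2.62 in BAT and 5.65 in iWAT and Elovl3 above 0 in both.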

How the data were processed

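RNA from BAT was sequenced as stranded poly(A) libraries. For each library the authors deposited raw read counts per gene, made with STAR on mm10 (GRCm38), the UCSC known gene annotation and HTSeq per the study's methods, and no normalized values. Whether the counting used strand is not given in the sources used here. Groups followed the library labels, 5 per genotype. The edgeR p-values set the difference of group means against the spread between libraries of a group. That spread was estimated over all libraries of the fit and partly shared across genes. The row with no gene name (at most 2.3e-05% of counts) was left out.

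The 20 BAT libraries were fitted together in edgeR 4.0.16 (R 4.3.3, limma 3.58.1) with TMM factors, 1 mean per genotype and the quasi-likelihood test. Genes needed a highest count above 15, a sum above 75 and at most 10 libraries at 0, and 15729 of 32764 passed. The BAT and iWAT comparison used a joint fit of both tissues. A gene was called at a Benjamini-Hochberg adjusted p under 0.01. A fold against WT libraries with at most 3 counts each was computed against 3 counts per library and is a lower bound for counting error only.

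The 40 gene lists (789 genes) and the genes named were chosen with earlier results of these data known. Named were key members of each list, up to 3 called members per list and direction with the largest change, and the 10 largest rises and falls with at least 1 CPM in the higher group and no overlap, within what the text could hold, with 1 gene not reported here. Alternatives were DESeq2 1.42.0, relative log expression factors, other filters, an adjusted p under 0.05, only the 10 libraries, score covariates and each library left out. Leaving out the UCP1 KO libraries of high muscle score and using plain library totals were chosen after seeing the data.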

Additional observations from a re-analysis of the deposited data

Results flagged for a closer look

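In groups of 5 libraries, a value was singled out when its gap to the nearest other library, divided by the range of the group, passed Dixon's 95% critical value of 0.71, on log2(CPM + 0.1). This picked out 20 of 302 groups, where about 1 in 20 (15.1) would be picked out by chance. UCP1 KO library 1 stood apart for Chac1 (0.730), Slc7a11 (0.775), Etv4 (0.71), Dio2 (0.830), Uqcrh (0.721) and Sdhd (0.809), and except for Dio2 it was the UCP1 KO library nearest to WT. UCP1 KO library 2 stood apart for Asns (0.769), Vegfa (0.744), Tbx15 (0.731) and Rnf150 (0.830), and UCP1 KO library 5 for P2rx5 (0.727). Among the WT libraries the values were 0.806 for Epdr1 and 0.746 for Dusp4 in library 1, 0.757 for Mx1 and 0.845 for Sh2d6 in library 3, 0.848 for Cox7a1 in library 4 and 0.778 for Ebf2 in library 5, with 0.717 for Igfbp3 in library 1. For Sult4a1 (WT library 5) and Raet1d (WT library 2) the value was 1, since the other 4 WT libraries had no count.

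The effect of UCP1 loss differed between BAT and iWAT (test of the difference, edgeR adjusted p under 0.01) for members of the brown fat identity, stress response and amino acid lists. The difference, BAT minus iWAT on the log2 scale, was -8.27 for Ucp1 (edgeR adjusted p = 8.31e-06), where the iWAT count was higher in the libraries labelled UCP1 KO. It was 0.86 for Atf4, 3.80 for Gdf15, 2.84 for Aldh18a1, 2.41 for Pycr1, 2.64 for Psat1, 3.77 for Mthfd2, 4.84 for Slc7a5 and 1.99 for Cth. It was -2.54 for Ppargc1b, -4.98 for Cidea, -5.07 for Elovl3, -3.84 for Cox7a1, -3.32 for Cox8b, -2.98 for P2rx5, -3.41 for Pank1 and -4.06 for Otop1.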

How the results depend on the processing

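No paired analysis was possible because the labels give no replicate numbers: libraries were numbered in accession order, and the numbers tie to no litter, batch or mouse. Against 2169 genes called higher and 1796 lower, an adjusted p under 0.05 gave 3426 and 2969, plain library totals 5235 and 455, and the fit without UCP1 KO libraries 2, 3 and 4 gave 1368 and 778. Only the WT and UCP1 KO libraries fitted gave 1108 lower. Without single libraries the counts were 1701 to 2530 higher and 1388 to 2155 lower. The difference with and without FGF21 was called in 0 genes, in 1 with DESeq2 and with an adjusted p under 0.05, and in 0 to 1 without single libraries, 1 without UCP1 KO library 2 or 3. The difference between BAT and iWAT, called in 919 genes, was called in 1740 with DESeq2, 1510 when a lymph node score was added, 2281 with an adjusted p under 0.05 and 537 to 1864 without single libraries. The causes were not tested, except that fewer libraries and a wider threshold are built into those alternatives. Of 111 called genes named, Ckmt2 and Atp2a1 changed sign, to -0.28 and -0.11 with the muscle score as a covariate, and 27 lost their call under some alternative, 20 of them without UCP1 KO libraries 2, 3 and 4 and none with DESeq2. Of genes not called, the sign turned with plain library totals for Vegfa (0.043), Ppargc1a (0.14), Cidea (0.18), Dio2 (0.14) and Scd1 (0.021), without the 3 libraries for Ppargc1a (0.060), Cidea (0.015), Dio2 (0.88) and Pdk4 (0.20), and with the muscle covariate for Dio2 (0.29). Without single libraries Ppargc1a ran from -0.34 to 0.31, Cidea from -0.28 to 0.026 and Dio2 from -1.28 to 0.29. Genes at a few counts, such as Slc7a11, Etv4 and Gdf15 in WT, have fold changes limited by depth.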

Other observations

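Single genes of cholesterol synthesis, growth and the clock also moved in UCP1 KO BAT. The shares of all genes called were 13.8% higher and 11.4% lower. Of 20 tested cholesterol synthesis genes 5 were called higher, and Sqle, squalene epoxidase, had 17.5, 16.0, 11.8, 12.0 and 8.89 CPM in WT and 20.5, 48.3, 76.5, 43.7 and 48.5 CPM in UCP1 KO without overlap (1.85, SE 0.299, edgeR adjusted p = 0.000126). Of 21 tested immediate early genes 4 were called higher and none lower. Myc, a transcription factor of growth, had 4.81, 4.25, 4.09, 5.76 and 2.87 CPM in WT and 4.75, 10.7, 14.99, 22.7 and 25.5 CPM in UCP1 KO, where library 1 lay inside the WT range (1.85, SE 0.345, edgeR adjusted p = 0.000407). Of 19 tested clock genes 3 were called higher (15.8%) and 2 lower, close to the shares of all genes. The output factors Tef (111, 135, 132, 216 and 251 CPM in WT, 112, 92.7, 73.6, 84.9 and 70.8 in UCP1 KO) and Hlf (17.1, 24.1, 22.3, 34.0 and 34.5 and 20.8, 11.9, 12.0, 11.0 and 8.83) were lower (-0.96 and -1.03, edgeR adjusted p = 0.000418 and 0.00215), again with UCP1 KO library 1 inside the WT range, and neither was called without UCP1 KO libraries 2, 3 and 4 (-0.89 and -0.83, adjusted p = 0.0187 and 0.0772). Hlf was not called in the fit of the 10 libraries either (0.0109). Of 22 tested insulin and IGF genes 4 were called lower and 1 higher, and without UCP1 KO libraries 2, 3 and 4 there was 1 lower. Igfbp3, which binds IGFs in the circulation, had 23.3, 29.7, 32.7, 30.6 and 31.3 CPM in WT and 15.1, 7.57, 6.42, 10.4 and 10.8 CPM in UCP1 KO without overlap (-1.56, SE 0.327, edgeR adjusted p = 0.00113), and without the 3 libraries -1.19 (0.0549). Of 33 tested collagen and matrix genes 5 were called higher and none lower, of 18 genes of mitochondrial dynamics and DNA maintenance 1 higher and 3 lower, of 12 lipolysis genes none higher and 2 lower and of 6 glyceroneogenesis genes none higher and 1 lower. Matrix genes called higher were 3 without WT library 1 and 3, with 1 lower, without UCP1 KO libraries 2, 3 and 4. Genes of mitochondrial dynamics called lower were 6 without UCP1 KO library 1, 1 without WT library 2 and 1 without the 3 libraries. Lipolysis genes called lower were 4 without UCP1 KO library 1, none without WT library 2 or 3 or the 3 libraries and 1 without any other one library. With plain library totals 1 lipolysis gene was called higher and none lower, and no glyceroneogenesis gene was called. Of 21 lymphocyte and granulocyte genes 2 were called higher and 1 lower, with a median log2 fold change of 1.18. The count of rises was 7 without UCP1 KO library 1, 8 with DESeq2, 5 of 20 in the fit of the 10 libraries, 9 with plain library totals and 1 of 20 without UCP1 KO libraries 2, 3 and 4.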
